A study of Ovis aries with 36 samples.

Results

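The comparison described here is that of 8 RNA-seq libraries of fetal sheep longissimus dorsi muscle, the long muscle of the back, between maternal diets based on corn (CN, labelled Corn) and on alfalfa haylage (HY, labelled Hay). These libraries were chosen by their tissue and diet labels from the 36 libraries of the series, which also hold a dried corn distillers grains diet (DG) and 2 adipose depots. Each library was made from RNA pooled over fetuses of 1 sex, with 2 female pools (F1 and F2) and 2 male pools (M1 and M2) per diet. The series comprised 26 fetuses of 15 dams. Ewes were of the Polypay breed and bred to a single sire, and the diets were fed from mid to late gestation until the fetuses were removed. Pool F2 of CN held a single fetus, and each of the other CN and HY pools shared a dam with another pool of its diet, so that the pools of a diet are not fully independent. Haylage was fed ad libitum and corn was limit-fed, so the feed, the way of feeding and the protein supplied differed together between the groups and cannot be told apart.

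Fetal muscle at this stage has already formed its fibers, which grow by the accretion of sarcomeres and by the fusion of myoblasts. The sarcomere is anchored at the Z-disc and tied to the membrane by costameres, while collagens, laminins and proteoglycans outside the fiber form its basement membrane. Ribosomal proteins and the small nucleolar RNAs (snoRNAs) that guide the modification of ribosomal RNA belong to the machinery of protein synthesis.

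Counts per pool totalled 13749762 to 19387181 in CN and 19071024 to 22831074 in HY, a ratio of means of 1.27 (two-sided exact permutation test, p = 0.0571). Between 24495 and 24840 loci had at least 1 count in the CN pools and between 25065 and 25999 in the HY pools (exact permutation test, p = 0.0286, the smallest that 4 against 4 pools can give). Of 15 skeletal muscle fiber markers 13 were tested, and their summed level was 88715 to 102690 CPM (counts scaled to library size after TMM normalization) in CN and 90139 to 108764 CPM in HY. The most abundant of them were MYLPF, ACTA1, TNNT3 and CKM, all of them genes of contractile or energy proteins of fibers. None of these 13 markers differed at FDR ≤0.05. Of 11 lists of cell type markers, only the smooth muscle and pericyte list had summed levels that did not overlap between diets, at 373 to 411 CPM in CN and 442 to 486 CPM in HY, and none of its 7 tested members was called. Nearest were RGS5, CNN1 and PDGFRB, with log2 changes (HY minus CN) of 1.05 (FDR = 0.0518), 0.78 (FDR = 0.0531) and 0.86 (FDR = 0.0755). The median of the list was 0.36, and its lowest member was MCAM at −0.0005.

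Out of 18573 loci tested, 500 differed between CN and HY at FDR ≤0.05 (2.69% of those tested) by the quasi-likelihood test of edgeR, with 4 pools of each diet. Of these, 454 were higher in HY (2.44% of loci tested) and 46 were higher in CN (0.248%). Muscle genes for calcium handling, the Z-disc, the citrate cycle, the basement membrane and axon guidance were among those higher in HY, while a ribosomal protein locus, 2 loci named for snoRNAs, the mitochondrial import subunit TOMM7 and the centrin CETN3 were among those higher in CN. In pooled tissue, more cells of a type and more RNA per cell cannot be told apart. The 46 loci higher in CN changed less, with a median absolute log2 change of 0.71 against 0.98 for those higher in HY, and they held more counts, with a median mean count of 507 against 256. Over all tested loci, 7.16% had every HY pool above every CN pool and 5.29% had every CN pool above every HY pool. Among called loci, 431 of the 454 higher in HY and 43 of the 46 higher in CN had pools without overlap. Calls were made from these same pools. Separated pools of a called gene below therefore describe its values and add no support to the call. A change of at least 2-fold was seen in 11 of the 46 and in 220 of the 454. At FDR ≤0.20 the directions were more even, with 1915 loci higher in HY (10.3% of loci tested) and 1059 higher in CN (5.7%), or 16% in all, and the median log2 change (HY minus CN) over all tested loci was −0.02. Of the loci called, 90.8% were higher in HY at the stricter and 64.4% at the looser threshold.

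**Figure D1:**
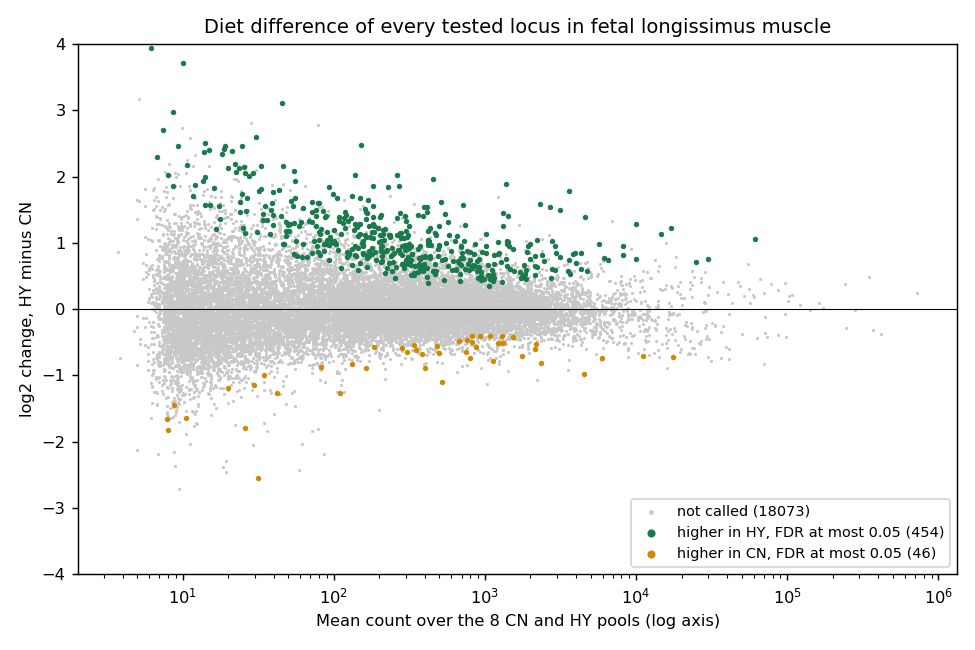
Log2 change (HY minus CN) against the mean count over the 8 CN and HY pools, on a log axis, for the 18573 tested loci of fetal longissimus muscle, of which 3 lie beyond the axis. Green points are the 454 loci higher in HY and orange points the 46 higher in CN at FDR ≤0.05. The median absolute log2 change is 0.71 for the orange points and 0.98 for the green points.

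Named genes below are given as CPM in pools F1, F2, M1 and M2, in that order, followed by the log2 change (HY minus CN) with its standard error and the FDR of edgeR's quasi-likelihood test. A negative log2 change means higher with corn. Files name genes by locus, and when a locus spans several genes all of its gene symbols are given. The loci of FLNC and SRF also carry an Ensembl identifier, which is left out below.

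Of the 46 loci higher in CN, 28 carried a gene symbol, 12 had no name and 6 had only an Ensembl identifier. The locus of RPS25, a protein of the small ribosomal subunit, together with SLC37A4, a transporter of glucose 6-phosphate, was at 1307, 981, 1186 and 1463 CPM in the CN pools and 746, 581, 782 and 879 CPM in the HY pools (log2 change −0.72 ± 0.18, FDR = 0.0478). Every CN pool lay above every HY pool, although the reads of the merged genes cannot be told apart and ribosomal protein genes have near-identical copies. The locus on chromosome 21 that carries the names of SNORD22 and SNORD31, box C/D snoRNAs, was at 53.9, 43.5, 51.02 and 56.1 CPM in the CN pools and 33.01, 26.8, 36.1 and 35.1 CPM in the HY pools (log2 change −0.64 ± 0.12, FDR = 0.0205), and this was the smallest FDR among the named loci higher in CN. Another such locus, that of SNORA8 and TAF1D, a subunit of the RNA polymerase I initiation factor, was at 51.4, 50.3, 66.2 and 63.04 CPM in the CN pools and 38.4, 34.7, 38.8 and 43.04 CPM in the HY pools (log2 change −0.58 ± 0.13, FDR = 0.0355). Both loci had no overlap between diets, and reads of a snoRNA cannot be told apart from those of a longer transcript over the same locus. GNL2, a nucleolar GTPase of large ribosomal subunit assembly, was at 68.9, 73.4, 64.6 and 63.99 CPM in the CN pools and 51.04, 45.02, 53.9 and 53.5 CPM in the HY pools (log2 change −0.41 ± 0.09, FDR = 0.0355). Its CN pools lay close together and all above the HY pools.

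PIN4, a peptidyl-prolyl isomerase of the parvulin type, had the largest CN over HY change among named genes with at least 50 mean counts, at 32.8, 24.1, 29.1 and 30.9 CPM in the CN pools and 14.1, 12.6, 15.004 and 21.7 CPM in the HY pools (log2 change −0.88 ± 0.18, FDR = 0.0227). HY pool M2 came nearest to the CN pools and still lay below all of them. EMC2, a subunit of the complex that inserts proteins into the membrane of the endoplasmic reticulum (locus chr9:68624405-68661838 of Oar_v3.1), was at 118, 104, 126 and 144 CPM in the CN pools and 74.3, 65.004, 70.2 and 90.4 CPM in the HY pools (log2 change −0.71 ± 0.14, FDR = 0.0211), again without overlap. TOMM7, a small subunit of the translocase through which proteins enter mitochondria, was at 184, 114, 176 and 203 CPM in the CN pools and 83.7, 83.2, 90.2 and 128 CPM in the HY pools (log2 change −0.81 ± 0.19, FDR = 0.0376). Here the diets overlapped, because CN pool F2 lay below HY pool M2. RARS2, the arginyl-tRNA synthetase of mitochondria, was also higher in CN (53.4 ± 6.204 CPM in CN and 37.96 ± 4.19 CPM in HY, n = 4 pools per diet; log2 change −0.49 ± 0.12, FDR = 0.0488).

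CETN3, a centrin of the centriole, was at 60.01, 46.02, 55.1 and 61.6 CPM in the CN pools and 30.4, 23.6, 35.7 and 43.7 CPM in the HY pools (log2 change −0.74 ± 0.17, FDR = 0.038), and the pools of the diets did not overlap. IFT74, a protein of intraflagellar transport in cilia (log2 change −0.54 ± 0.13, FDR = 0.0461), and CCDC66, a protein of centrosomes and cilia (log2 change −0.40 ± 0.10, FDR = 0.0482), were also higher in CN. These 2 genes were picked out after their values were seen. SAT1, the rate-limiting enzyme of polyamine breakdown, was at 83.2, 81.1, 77.2 and 98.7 CPM in the CN pools and 62.8, 58.2, 61.2 and 56.9 CPM in the HY pools (log2 change −0.51 ± 0.10, FDR = 0.0245). PLOD2, which hydroxylates lysines of collagen for crosslinking, was at 134, 136, 150.3 and 148 CPM in the CN pools and 100.1, 80.5, 99.5 and 114 CPM in the HY pools (log2 change −0.53 ± 0.11, FDR = 0.0245). Neither gene had overlapping pools, and in both the spread within a diet was small against the difference. MBIP, a member of a histone acetyltransferase complex, was at 45.9, 38.8, 43.6 and 43.2 CPM in the CN pools and 30.7, 27.4, 32.7 and 32.5 CPM in the HY pools (log2 change −0.48 ± 0.10, FDR = 0.0273). OARD1, which removes ADP-ribose from proteins, was at 26.1, 24.2, 22.9 and 19.5 CPM in the CN pools and 13.6, 15.99, 15.6 and 15.3 CPM in the HY pools (log2 change −0.62 ± 0.14, FDR = 0.0354). Both lay higher in each CN pool than in any HY pool. ZNF175, a zinc finger protein, was at 24.1, 24.1, 34.1 and 22.1 CPM in the CN pools and 17.3, 16.3, 15.99 and 15.4 CPM in the HY pools (log2 change −0.68 ± 0.15, FDR = 0.0302), with CN pool M1 well above the other CN pools. CLEC2B, a lectin-like membrane protein of immune cells, was lowly expressed at 11.6, 7.84, 10.8 and 7.46 CPM in the CN pools and 4.51, 5.11, 7.22 and 4.29 CPM in the HY pools (log2 change −0.84 ± 0.21, FDR = 0.0482), and its CN pools M2 and F2 lay only just above HY pool M1. CCDC23 was at 35.7, 28.4, 31.6 and 39.7 CPM in the CN pools and 21.3, 17.2, 22.6 and 24.7 CPM in the HY pools (log2 change −0.66 ± 0.16, FDR = 0.0488), with no overlap.

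PTBP2, the neuronal form of the polypyrimidine tract-binding splicing repressor, was at 92.98, 61.4, 79.3 and 81.4 CPM in the CN pools and 48.5, 56.3, 61.3 and 54.9 CPM in the HY pools (log2 change −0.51 ± 0.12, FDR = 0.0459), with CN pool F2 just above the highest HY pool. Its paralog PTBP1 went the other way, at 40.8, 41.5, 37.3 and 39.1 CPM in the CN pools and 57.8, 62.97, 53.4 and 60.8 CPM in the HY pools (log2 change 0.57 ± 0.11, FDR = 0.0178), and its CN pools all lay below its HY pools. Counts of the remaining named loci higher in CN were also separated by modest folds. They were FIBIN, FCHO2, FRMD3, GEMIN6, FAM126A, TM2D2 and PEBP4, with log2 changes from −1.15 (FIBIN, at about 1 to 3 CPM) to −0.40 (FCHO2, an endocytic adaptor). GEMIN6, of the complex that assembles spliceosomal ribonucleoproteins, was at 18.8 ± 2.32 CPM in CN and 12.5 ± 1.9997 CPM in HY (log2 change −0.59 ± 0.14, FDR = 0.0461).

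**Figure D2:**
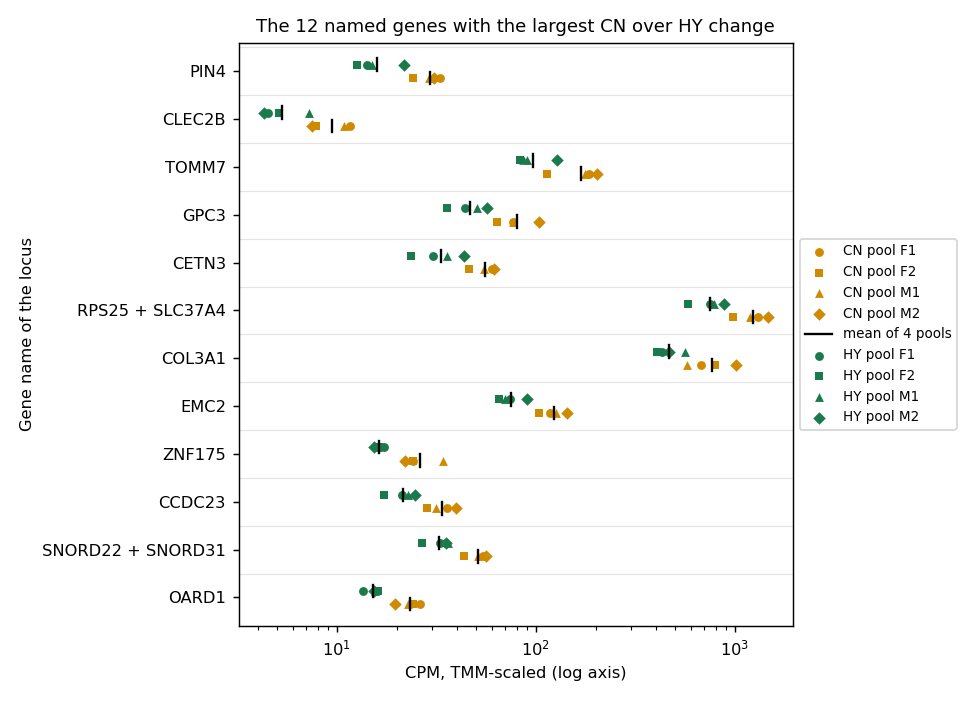
CPM on a log axis in the 4 CN pools (orange) and the 4 HY pools (green) of the 12 named genes with the largest CN over HY change, with marker shapes for pools F1, F2, M1 and M2 and a black bar at each diet's mean. Diets overlap for TOMM7 only, where CN pool F2 lies below HY pool M2.

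COL3A1, GPC3 and FIBIN each had another tested locus of the same name that was not called. At the called COL3A1 locus, type III collagen was at 678, 791, 576 and 1019 CPM in the CN pools and 431, 405, 563 and 468 CPM in the HY pools (log2 change −0.72 ± 0.18, FDR = 0.0493), yet this locus held only 13.4% of the counts named COL3A1. The larger locus, over the same span, had 3979 ± 1122 CPM in CN and 3647 ± 631 CPM in HY (log2 change −0.13, FDR = 0.778). GPC3, a glypican of the cell surface, was at 76.6, 63.9, 76.7 and 104 CPM in the CN pools and 43.97, 35.6, 50.8 and 57.1 CPM in the HY pools at the called locus (log2 change −0.78 ± 0.18, FDR = 0.0373), which held 26.3% of its counts, whereas the other locus had 171 ± 53.2 CPM in CN and 167 ± 16.9 CPM in HY (log2 change −0.03, FDR = 0.946). With the counts of both loci summed, an alternative added after the data were seen, COL3A1 changed by a log2 of −0.21 (FDR = 0.593), GPC3 by −0.23 (FDR = 0.484) and FIBIN by −0.60 (FDR = 0.221), none of which passed. Values of these 3 genes higher in CN therefore hold for the called locus, not for the gene. The library protocol in the sources used here does not state strand, so reads from loci on opposite strands cannot be told apart.

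As a group, the cytosolic ribosomal proteins leaned towards CN. Of 38 tested members 32 had a log2 change below 0, as did 52.1% of all tested loci, with a median of −0.30 against −0.02 over all tested loci, and 1 was called at FDR ≤0.05. At FDR ≤0.20, 14 were higher in CN and 1 in HY, where 5.7% and 10.3% of all tested loci passed in those directions. RPL31 had 2895 ± 512 CPM in CN and 1709 ± 322 CPM in HY (log2 change −0.76 ± 0.20, FDR = 0.0549), RPL23 had 1559 ± 208 CPM in CN and 979 ± 184 CPM in HY (log2 change −0.67 ± 0.17, FDR = 0.0505), and RPL26 had 838 ± 118 CPM in CN and 516 ± 89.6 CPM in HY (log2 change −0.70 ± 0.18, FDR = 0.0573), so that these 3 abundant members fell just short of the threshold. Taken over the tested members, their share of all counts was 3.25% to 4.15% in CN and 2.37% to 3.16% in HY, without overlap. The group median stayed between −0.39 and −0.20 when any 1 pool was left out, while the number of members called in CN ranged from 0 to 7. The study had reported ribosome terms from these samples, with most differing genes higher in CN, so this lean is not independent evidence. Small non-coding RNA loci had a median of −0.19 over 93 tested loci, of which 2 were called higher in CN and 1 in HY. Mitochondrial ribosomal proteins (median −0.14 over 66 tested, 9 higher in CN and 4 in HY at FDR ≤0.20), splicing regulators (median −0.18 over 46) and complex I subunits (median −0.17 over 26) lay on the same side of 0, although the few members called were mostly higher in HY. These were MRPS7 of the mitochondrial ribosome (log2 change 0.80 ± 0.18, FDR = 0.0308), NDUFA10 of complex I (log2 change 0.85 ± 0.20, FDR = 0.0415), and PTBP1 and QKI of the splicing regulators, of which QKI no longer passed with its 2 loci summed (FDR = 0.0561).

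RPL13A went against its group only at a minor locus. A copy on chromosome 9 was at 3.85, 1.64, 2.15 and 3.46 CPM in the CN pools and 14.7, 6.35, 6.13 and 17.96 CPM in the HY pools (log2 change 2.02 ± 0.41, FDR = 0.0245), the largest HY over CN change among named genes with at least 50 mean counts, but it held 0.587% of the counts named RPL13A. The main locus on chromosome 14 had 1402 ± 214 CPM in CN and 1161 ± 194 CPM in HY (log2 change −0.27, FDR = 0.36), and the sum of both lay on the CN side at −0.26 (FDR = 0.373). RPS26 showed the same split, with 18.9 ± 1.08 CPM in CN and 30.2 ± 4.498 CPM in HY at its called minor locus (log2 change 0.68, FDR = 0.0355) and 413 ± 45.8 CPM in CN and 292 ± 55.4 CPM in HY at its main locus (log2 change −0.50, FDR = 0.153).

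Among the genes higher in HY, ALDH4A1, a mitochondrial enzyme of proline breakdown, had the smallest FDR of all named genes, at 4.55, 3.43, 3.94 and 3.796 CPM in the CN pools and 17.3, 13.3, 15.5 and 10.9 CPM in the HY pools (log2 change 1.86 ± 0.18, FDR = 0.00137). The lowest HY pool was more than 2-fold above the highest CN pool. RGMA, a membrane-anchored co-receptor of bone morphogenetic proteins, was at 3.04, 4.0998, 2.72 and 3.32 CPM in the CN pools and 10.3, 8.43, 8.57 and 8.22 CPM in the HY pools (log2 change 1.42 ± 0.16, FDR = 0.00342). SQSTM1, the autophagy receptor p62, was at 7.47, 6.82, 7.81 and 7.66 CPM in the CN pools and 23.9, 23.8, 15.7 and 17.96 CPM in the HY pools (log2 change 1.45 ± 0.18, FDR = 0.00496). NF2, the tumor suppressor merlin upstream of the Hippo pathway, was at 3.27, 3.89, 3.73 and 3.12 CPM in the CN pools and 13.6, 13.998, 8.83 and 8.53 CPM in the HY pools (log2 change 1.68 ± 0.22, FDR = 0.00647). All 4 genes had tightly grouped CN pools and no overlap. The locus of MYBPH, a myosin-binding protein, and CHI3L1, a chitinase-like glycoprotein, was at 52.6, 68.98, 46.6 and 64.6 CPM in the CN pools and 227, 169, 152 and 149.9 CPM in the HY pools (log2 change 1.58 ± 0.20, FDR = 0.0056), also without overlap. Another locus over the same span, named for MYBPH alone, had 263 ± 66.1 CPM in CN and 272 ± 73.2 CPM in HY (log2 change 0.05, FDR = 0.942).

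SYNPO2, a Z-disc protein that binds actin, was at 15.1, 42.7, 31.2 and 25.2 CPM in the CN pools and 102, 166, 84.5 and 70.4 CPM in the HY pools (log2 change 1.89 ± 0.31, FDR = 0.0123), with CN pool F2 the highest of CN and still below HY pool M2. SRL, the sarcoplasmic reticulum protein sarcalumenin, was at 33.97, 147, 78.7 and 59.2 CPM in the CN pools and 335, 348, 269 and 148 CPM in the HY pools (log2 change 1.78 ± 0.39, FDR = 0.0326). Its diets were separated by less than 1 CPM, between CN pool F2 and HY pool M2. This locus held 59.4% of the counts named SRL, the other had 131 ± 20.4 CPM in CN and 134 ± 14.1 CPM in HY (log2 change 0.03, FDR = 0.922), and with both summed the log2 change was 0.96 (FDR = 0.0444). CRKL, an adaptor of receptor signaling at the neuromuscular junction, was at 1.28, 2.61, 2.51 and 2.64 CPM in the CN pools and 8.11, 8.81, 6.85 and 6.49 CPM in the HY pools (log2 change 1.74 ± 0.28, FDR = 0.0116). DUSP16, a phosphatase of MAP kinases, was at 1.11, 2.72, 1.93 and 2.101 CPM in the CN pools and 5.46, 14.1, 4.41 and 4.08 CPM in the HY pools (log2 change 1.84 ± 0.39, FDR = 0.0299), and HY pool F2 stood far above the other HY pools. FBXO31, a ubiquitin ligase subunit, was at 2.86, 5.07, 4.37 and 3.86 CPM in the CN pools and 13.7, 17.2, 11.8 and 7.85 CPM in the HY pools (log2 change 1.64 ± 0.31, FDR = 0.0202). RBM38, an RNA-binding protein, was at 1.69, 0.615, 0.645 and 1.63 CPM in the CN pools and 5.88, 4.44, 3.17 and 3.98 CPM in the HY pools (log2 change 1.93 ± 0.33, FDR = 0.0129) at a locus with 14.8% of its counts, and the larger locus of that name had 17.4 ± 5.14 CPM in CN and 17.1 ± 1.64 CPM in HY (log2 change −0.03, FDR = 0.948). PLIN4, a coat protein of lipid droplets, was at 2.22, 5.64, 8.599 and 2.78 CPM in the CN pools and 15.2, 33.4, 10.7 and 9.16 CPM in the HY pools (log2 change 1.84 ± 0.46, FDR = 0.0497). It was the only one of the 9 tested adipocyte markers that was called, and the summed level of these 9 was 104 to 154 CPM in CN and 116 to 193 CPM in HY. ADIPOQ had 4.83 ± 3.34 CPM in CN and 10.1 ± 8.58 CPM in HY (log2 change 1.08, FDR = 0.399), PLIN1 had 1.06 ± 0.4595 CPM in CN and 1.74 ± 1.09 CPM in HY (log2 change 0.75, FDR = 0.511), and LEP and UCP1 were too low to be tested. The part of adipocytes in the PLIN4 value was not tested. FECB (log2 change 1.71 ± 0.39, FDR = 0.0355) and KIAA0247 (log2 change 1.68 ± 0.33, FDR = 0.0211) completed the 12 largest changes.

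**Figure D3:**
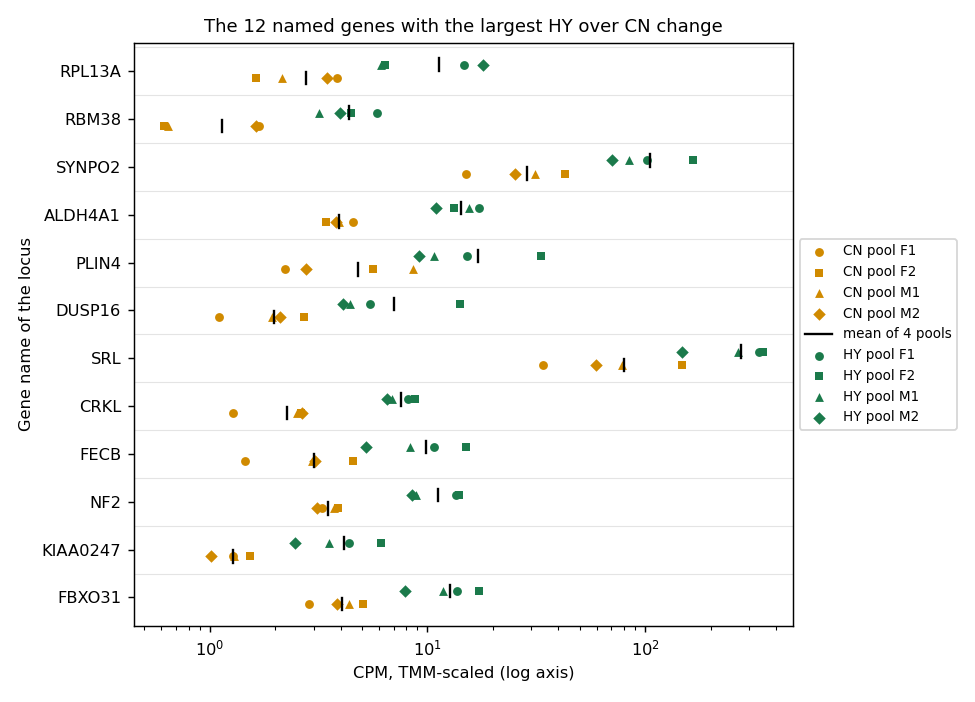
CPM on a log axis in the 4 CN pools (orange) and the 4 HY pools (green) of the 12 named genes with the largest HY over CN change, with marker shapes for pools and a black bar at each diet's mean. In all 12 the HY pools lie above the CN pools, most narrowly for SRL and PLIN4, and RPL13A is the minor locus of that name.

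Gene lists were compared by their counts and medians, without a test of the list, and each count below is to be read against the shares of all tested loci. These were 2.44% higher in HY and 0.248% in CN at FDR ≤0.05, and 10.3% and 5.7% at FDR ≤0.20. Z-disc, costamere and sarcolemma proteins had 11 of 51 tested members higher in HY at FDR ≤0.05 and none in CN (21.6% called), with a median log2 change of 0.36. The number called ranged from 1 to 14 when any 1 pool was left out. A log2 change above 0 was seen in 44 of the 51 and in 47.9% of all tested loci. Apart from SYNPO2 they included DAG1, the dystroglycan that links the fiber to its basement membrane, at 121, 176, 127 and 145 CPM in the CN pools and 277, 273, 228 and 236 CPM in the HY pools (log2 change 0.83 ± 0.14, FDR = 0.0123). NRAP, a scaffold of assembling myofibrils, was at 405, 599, 449 and 389 CPM in the CN pools and 1076, 1240.3, 824 and 915 CPM in the HY pools (log2 change 1.14 ± 0.20, FDR = 0.0151). In both, all HY pools exceeded all CN pools. FLNC, a filamin of the Z-disc, had 984 ± 28.7 CPM in CN and 1608 ± 197 CPM in HY (log2 change 0.71 ± 0.13, FDR = 0.0178), and XIRP2 (log2 change 1.22 ± 0.24, FDR = 0.0205), MYOZ3 (log2 change 1.54 ± 0.34, FDR = 0.0314), TLN1 (log2 change 0.47 ± 0.10, FDR = 0.0318), PLEC (log2 change 0.74 ± 0.19, FDR = 0.0498), SYNPO2L, PARVB and the merged locus of ANKRD23 and ANKRD39 were the other members called. NRAP, SYNPO2L and PARVB had been named by the study from these samples, so they are not independent evidence of the direction of this list. ANKRD1, SGCA, TCAP and TRIM72, also listed here and named by the study as lower in CN, were not among the 11 called. Large cytoskeletal linkers, a list that shares FLNC, TLN1 and PLEC with the former, had 11 of 35 members called, all higher in HY (1 to 10 with a pool left out), and a median of 0.32. DYNC1H1, the heavy chain of cytoplasmic dynein, was at 111, 116, 105 and 104 CPM in the CN pools and 209.9, 226, 179.7 and 167 CPM in the HY pools (log2 change 0.84 ± 0.13, FDR = 0.00909). MYO18B, an unconventional myosin of the sarcomere, was at 155, 107, 95.4 and 117 CPM in the CN pools and 218, 212, 196 and 194 CPM in the HY pools (log2 change 0.79 ± 0.14, FDR = 0.0157). Both were higher in every HY pool.

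Among thick and thin filament proteins, 3 of 34 were called, all higher in HY (8.82%, against 2.44% of all loci, and 0 to 6 members with a pool left out). MYOM1, the M-band protein myomesin, was at 164, 479, 290.1 and 241 CPM in the CN pools and 795, 882, 694 and 485 CPM in the HY pools (log2 change 1.28 ± 0.28, FDR = 0.034). MYH13, a myosin heavy chain of extraocular muscle, was at 4.203, 16.5, 4.16 and 12.1 CPM in the CN pools and 50.9, 24.8, 55.8 and 14.1 CPM in the HY pools (log2 change 1.97 ± 0.49, FDR = 0.0493), with overlap because CN pool F2 lay above HY pool M2, and had been named by the study from these samples. Abundant contractile genes did not pass the threshold, with ACTA1, skeletal alpha-actin, at 15347 ± 2323 CPM in CN and 21551 ± 1875 CPM in HY (log2 change 0.49, FDR = 0.136) and MYH8, the perinatal myosin heavy chain, at 6424 ± 1036 CPM in CN and 6681 ± 1386 CPM in HY (log2 change 0.06, FDR = 0.9). For calcium handling, 3 of 42 members were higher in HY. Besides SRL these were CACNA2D1, a subunit of the voltage-gated calcium channel, at 10.5, 24.4, 23.2 and 12.6 CPM in the CN pools and 53.6, 85.9, 37.02 and 33.1 CPM in the HY pools (log2 change 1.57 ± 0.33, FDR = 0.0263), and CACNG1, another subunit, at 45.6, 47.05, 46.9 and 56.1 CPM in the CN pools and 83.5, 64.4, 72.2 and 63.4 CPM in the HY pools (log2 change 0.53 ± 0.12, FDR = 0.0371). None of their CN pools reached a HY pool.

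Myogenic regulators had 8 of 41 members called, all higher in HY (median 0.14), and 2 to 13 with a pool left out. TMEM8C, known as myomaker and needed for myoblast fusion, was at 1.52, 1.54, 1.15 and 0.881 CPM in the CN pools and 4.55, 3.697, 4.83 and 2.83 CPM in the HY pools (log2 change 1.63 ± 0.25, FDR = 0.00996). SOX8 was at 0.525, 0.717, 0.573 and 0.542 CPM in the CN pools and 2.09, 1.83, 1.402 and 1.99 CPM in the HY pools (log2 change 1.61 ± 0.28, FDR = 0.014), a level of at most about 2 CPM. Both were separated between diets. Other members called were SMYD1, MKL1, SRF, HDAC4 and MYOD1, of which the study had named MYOD1 from these samples. MYOG, the differentiation factor myogenin, had 255 ± 25.4 CPM in CN and 247 ± 50.7 CPM in HY (log2 change −0.05, FDR = 0.891), MYF5 had 13.9 ± 3.57 CPM in CN and 11.2 ± 1.49 CPM in HY (log2 change −0.32, FDR = 0.407), and PAX7, the satellite cell factor, had 33.8 ± 1.52 CPM in CN and 33.3 ± 4.15 CPM in HY (log2 change −0.02, FDR = 0.933). Those 3 core regulators thus showed no detected difference. MYOD1, another core regulator, was higher in HY (log2 change 1.80) and kept its call in 5 of the 8 fits with a pool left out.

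Citrate cycle enzymes had the highest median of the lists, 0.39 over 23 tested members, with 4 higher in HY at FDR ≤0.05 and 10 at FDR ≤0.20, and none in CN, against 2.44% and 10.3% of all loci. The 4 became 0 to 10 when a pool was left out. The study had reported citrate cycle, glycolysis, starch and sucrose, galactose and insulin signaling pathways from these samples, with most differing genes higher in HY. The citrate cycle, glycolysis and insulin signaling lists are therefore not independent evidence of that direction. The same holds for the glycogen list, which may share genes with starch and sucrose metabolism. OGDH, the 2-oxoglutarate dehydrogenase, was at 183, 188, 131 and 136 CPM in the CN pools and 297, 264, 325 and 256 CPM in the HY pools (log2 change 0.84 ± 0.14, FDR = 0.0118). Its diets did not overlap. IDH3B, of the NAD-dependent isocitrate dehydrogenase, had 4.15 ± 1.95 CPM in CN and 11.9 ± 3.402 CPM in HY (log2 change 1.51 ± 0.29, FDR = 0.0202), and SUCLA2, of succinyl-CoA ligase, had 115 ± 14.1 CPM in CN and 175 ± 23.9 CPM in HY (log2 change 0.61 ± 0.15, FDR = 0.0488). In glycolysis, HK1 was the only one of 27 members called (log2 change 0.45 ± 0.11, FDR = 0.0425), although the list median was 0.34. No member of the 23 tested for glycogen metabolism was called at FDR ≤0.05, while 9 were higher in HY at FDR ≤0.20 (10.3% of all loci) and none in CN (median 0.35). Among them were PHKA1 (log2 change 0.49 ± 0.13, FDR = 0.0563), the muscle form of a phosphorylase kinase subunit, UGP2 (log2 change 0.76 ± 0.20, FDR = 0.0623) and PYGM, the muscle glycogen phosphorylase, at 1217 ± 332 CPM in CN and 1789 ± 278 CPM in HY (log2 change 0.56 ± 0.18, FDR = 0.111). Fatty acid oxidation had 0 of 30 called, and complexes II to V had 0 of 31, with UQCRC1 nearest (log2 change 0.70 ± 0.18, FDR = 0.0565). In insulin, IGF and mTOR signaling, SREBF1, a lipogenic transcription factor, was the 1 called of 41, at 9.75, 5.89, 5.66 and 7.999 CPM in the CN pools and 16.03, 14.2, 13.8 and 12.6 CPM in the HY pools (log2 change 0.95 ± 0.21, FDR = 0.0354). It did not overlap between diets. AKT2 (log2 change 0.55 ± 0.15, FDR = 0.0592) and IGF1R (log2 change 0.62 ± 0.21, FDR = 0.113) did not pass at FDR ≤0.05. Of 15 AMPK genes, the upstream kinase CAMKK2 was called (log2 change 1.48 ± 0.34, FDR = 0.0394).

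**Figure D4:**
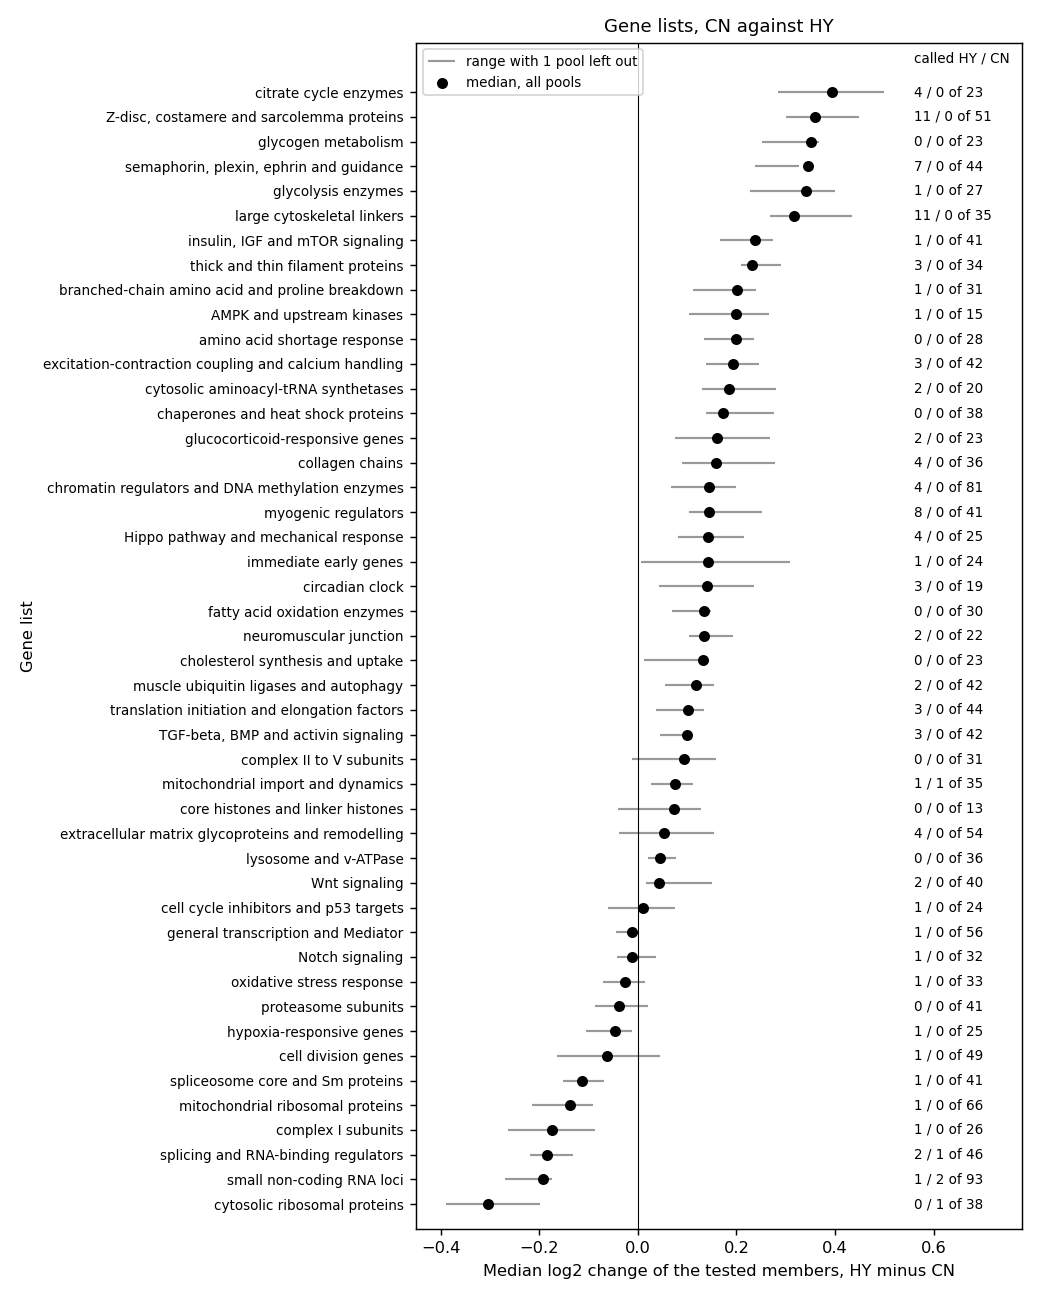
Median log2 change (HY minus CN) of the tested members of 46 gene lists (black points), with the range of that median when each pool was left out in turn (gray lines), and the number of members called higher in HY and in CN out of those tested. Citrate cycle enzymes sit highest at 0.39 and cytosolic ribosomal proteins lowest at −0.30.

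Outside the fiber, 4 of 36 collagen chains were higher in HY, counting the most abundant locus of each gene. COL4A2, a chain of basement membrane collagen IV, was at 107, 82.7, 52.6 and 90.4 CPM in the CN pools and 272, 231, 211 and 224 CPM in the HY pools (log2 change 1.49 ± 0.17, FDR = 0.00342), and no HY pool came near the highest CN pool. COL6A1 was at 72.4, 74.7, 46.1 and 74.8 CPM in the CN pools and 126, 176, 106 and 111 CPM in the HY pools (log2 change 0.95 ± 0.22, FDR = 0.0415). COL6A2, its partner in microfibrils around the fiber, was at 60.9, 50.9, 41.7 and 66.2 CPM in the CN pools and 109, 119, 88.2 and 94.98 CPM in the HY pools (log2 change 0.90 ± 0.17, FDR = 0.0178). Both type VI chains were separated between diets, and COL5A1 also passed (log2 change 0.65 ± 0.16, FDR = 0.0478). COL4A1, which pairs with COL4A2 in the same protein, had 1451 ± 332 CPM in CN and 1563 ± 155 CPM in HY (log2 change 0.11, FDR = 0.767) and did not pass. COL1A2 did not pass at its larger locus (log2 change 1.33 ± 0.37, FDR = 0.0702) nor at its smaller one (log2 change −0.45 ± 0.21, FDR = 0.239), and the fitted changes at these loci had opposite signs. Of 54 matrix glycoproteins and remodelling genes, 4 were called. HSPG2, the basement membrane proteoglycan perlecan, was at 144, 60.9, 67.7 and 105 CPM in the CN pools and 217, 176, 186 and 189 CPM in the HY pools (log2 change 1.03 ± 0.22, FDR = 0.0308), and EMILIN1, an elastic fiber protein, was at 7.18, 4.66, 2.87 and 6.85 CPM in the CN pools and 12.7, 10.5, 11.4 and 11.2 CPM in the HY pools (log2 change 1.08 ± 0.23, FDR = 0.0273). MMP14, a membrane-bound collagenase, had 30.99 ± 5.997 CPM in CN and 49.5 ± 5.68 CPM in HY (log2 change 0.67 ± 0.16, FDR = 0.0386), and PXDN, peroxidasin, had 34.9 ± 7.47 CPM in CN and 63.6 ± 7.84 CPM in HY (log2 change 0.87 ± 0.22, FDR = 0.0497). In TGF-beta signaling, 3 of 42 members were called. TGFBR2, the type II receptor, was at 4.26, 5.84, 5.303 and 7.12 CPM in the CN pools and 16.9, 19.2, 12.1 and 10.8 CPM in the HY pools (log2 change 1.39 ± 0.23, FDR = 0.0129), and LTBP3 (log2 change 1.28 ± 0.30, FDR = 0.042) and LTBP4 (log2 change 1.01 ± 0.24, FDR = 0.0434) encode proteins that hold latent TGF-beta in the matrix. When its 2 loci were summed TGFBR2 no longer passed (FDR = 0.0565).

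Semaphorins, plexins, ephrins and other guidance genes had 7 of 44 members higher in HY and none higher in CN (0 to 11 in HY with a pool left out), with a median of 0.35. SEMA4C was at 12.9, 13.02, 12.5 and 10.4 CPM in the CN pools and 20.9, 20.7, 16.4 and 21.3 CPM in the HY pools (log2 change 0.70 ± 0.13, FDR = 0.0202), and SEMA7A, a membrane-anchored semaphorin, was at 7.12, 8.87, 7.88 and 8.07 CPM in the CN pools and 16.7, 16.3, 11.01 and 14.7 CPM in the HY pools (log2 change 0.88 ± 0.17, FDR = 0.0202). NTN1, netrin-1, rose from 0.423 ± 0.234 to 1.803 ± 0.368 CPM (log2 change 2.07 ± 0.41, FDR = 0.0227), and stayed below 1 CPM in every CN pool. PLXND1, EFNB1, SEMA6B and SEMA4B were the others. Of 25 Hippo pathway genes 4 were called. Next to NF2 these were AMOTL1 (log2 change 0.70 ± 0.14, FDR = 0.0244), DCHS1 (log2 change 0.83 ± 0.21, FDR = 0.0499) and SAV1, which overlapped between diets (log2 change 1.17 ± 0.29, FDR = 0.0493).

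HLF and TEF are PAR bZIP factors that follow the circadian clock, and 3 of 19 clock genes were called. HLF was at 0.409, 0.461, 0.573 and 0.542 CPM in the CN pools and 2.56, 2.6998, 1.45 and 1.52 CPM in the HY pools (log2 change 2.05 ± 0.38, FDR = 0.0178), TEF was at 48.1, 44.7, 46.7 and 48.3 CPM in the CN pools and 89.7, 56.6, 77.8 and 58.2 CPM in the HY pools (log2 change 0.59 ± 0.14, FDR = 0.0415), and CSNK1E, a kinase of clock proteins, was at 4.67, 8.25, 6.66 and 5.83 CPM in the CN pools and 13.6, 13.9, 10.6 and 10.001 CPM in the HY pools (log2 change 0.92 ± 0.21, FDR = 0.0362). HLF lay below 1 CPM in every CN pool and above it in every HY pool. The hour at which tissue was taken from each fetus was not given in the sources used here. KLF15 and KLF9, factors induced by glucocorticoids, were the 2 called of 23 such genes. KLF15 was at 0.3502, 0.40998, 0.287 and 0.339 CPM in the CN pools and 1.52, 1.25, 1.19 and 1.05 CPM in the HY pools (log2 change 1.82 ± 0.31, FDR = 0.0132) and KLF9 was at 3.04, 6.201, 4.44 and 3.66 CPM in the CN pools and 15.2, 16.5, 8.83 and 7.17 CPM in the HY pools (log2 change 1.46 ± 0.29, FDR = 0.0239), both without overlap. Of 81 chromatin regulators 4 were called at FDR ≤0.05, all higher in HY (4.94%, against 2.44% of all loci, and 0 to 8 members with a pool left out), and 22 were higher in HY and 2 in CN at FDR ≤0.20, where 10.3% and 5.7% of all loci passed. KDM4B (log2 change 0.96 ± 0.20, FDR = 0.0268) and KDM6B (log2 change 0.77 ± 0.19, FDR = 0.0461) are histone demethylases, SMARCC1 (log2 change 1.25 ± 0.31, FDR = 0.0482) belongs to a chromatin remodelling complex, and HIRA, a histone chaperone, had been named by the study. From these samples the study had also reported a chromatin term, with most differing genes lower in CN. EEF1A2, the elongation factor form of mature muscle and neurons, was at 1074, 1284, 1100.1 and 1217 CPM in the CN pools and 2500.0, 1693, 1978 and 1699 CPM in the HY pools (log2 change 0.75 ± 0.15, FDR = 0.0222), 1 of 3 called among 44 translation factors. AARS (log2 change 0.46 ± 0.10, FDR = 0.0332) and TARS (log2 change 0.61 ± 0.14, FDR = 0.0415), both cytosolic aminoacyl-tRNA synthetases, were 2 of 20. NFE2L1, a factor that induces proteasome genes, was called (log2 change 1.40 ± 0.28, FDR = 0.0227), whereas 0 of 41 proteasome subunits passed, and PSMA3, the nearest, lay on the CN side (log2 change −0.56 ± 0.15, FDR = 0.0616). 

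The remaining lists given here held at most 2 called members at FDR ≤0.05. Where 1 member of a long list was called, that share lay near the 2.69% of all loci and is by itself no result about the list. In Wnt signaling AXIN1 and BCL9L were higher in HY (2 of 40 tested), both named by the study. Of 32 Notch genes LFNG, a glycosyltransferase that modifies Notch, was called (log2 change 1.87 ± 0.44, FDR = 0.0415). Its level was low, at 0.249 ± 0.133 CPM in CN and 0.946 ± 0.287 CPM in HY. SQSTM1 and ATG7, an enzyme of autophagosome formation (log2 change 0.75 ± 0.19, FDR = 0.0493), were 2 of 42 genes of muscle ubiquitin ligases and autophagy. Of 22 neuromuscular junction genes, CRKL and GABPA, a factor of synaptic gene transcription that overlapped between diets (log2 change 1.04 ± 0.26, FDR = 0.0493), passed. MFN2, which fuses outer mitochondrial membranes, was at 159, 177, 149.6 and 137 CPM in the CN pools and 241, 232, 232 and 191 CPM in the HY pools (log2 change 0.52 ± 0.11, FDR = 0.0293), and with TOMM7 it was 1 of the 2 genes called among 35 of mitochondrial import and dynamics, in opposite directions. Single members were called among 41 spliceosome genes (SNRNP200, log2 change 0.75 ± 0.16, FDR = 0.0286), 49 cell division genes (MCM5, log2 change 0.85 ± 0.20, FDR = 0.0415), 24 genes listed as cell cycle inhibitors and p53 targets (CCND3, merged with MED20, log2 change 0.69 ± 0.16, FDR = 0.0415), 25 hypoxia-responsive genes (EPAS1, log2 change 0.51 ± 0.13, FDR = 0.0488), 24 immediate early genes (SRF, log2 change 1.40 ± 0.31, FDR = 0.0341), 33 oxidative stress genes (NFE2L1), 56 general transcription genes (POLR2H, merged with EIF4G1 and FAM131A, log2 change 0.61 ± 0.13, FDR = 0.0268) and 31 genes of branched-chain amino acid and proline breakdown (ALDH4A1), each of them higher in HY. CCND3 itself is a cyclin, not a cell cycle inhibitor. At FDR ≤0.20, 7 of the 31 genes of branched-chain amino acid and proline breakdown were higher in HY and none in CN (median log2 change 0.20). At that threshold 10.3% and 5.7% of all loci passed in those directions. Valine, leucine and isoleucine degradation had been reported by the study from these samples, with most differing genes higher in HY. This lean is therefore not independent evidence. MCM5 and EPAS1 overlapped between diets. No member was called among 13 histones, 36 lysosome genes, 23 cholesterol genes, 38 chaperones and 28 genes of the amino acid shortage response. PSAT1, an enzyme of serine synthesis, came nearest in the last list, at 8.99, 10.5, 7.67 and 6.101 CPM in the CN pools and 8.92, 42.3, 10.3 and 38.9 CPM in the HY pools (log2 change 1.59 ± 0.44, FDR = 0.0654), with HY pools F2 and M2 high and HY pools F1 and M1 within the range of CN. HY pools F2 and M2 hold littermates of a dam that no other HY pool holds, and the part of this dam was not tested.

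Loci higher in HY spanned more of the genome. For loci whose listed span is not shared with a neighbor, the median span was 19235 bp over 216 loci higher in HY, 8414 bp over 29 loci higher in CN and 9038 bp over all 12014 tested. When all 12014 were split by span into 5 groups of about equal number, the median log2 change was −0.20 for spans of 93 to 1448 bp, −0.11 for 1449 to 4665 bp and −0.03, −0.02 and −0.01 for the 3 groups of longer spans. Loci in the shortest group held few counts, with a median mean count of 13.6 against 461 in the longest. The part of locus length in the calls was not tested. With all libraries thinned to the lowest total, 451 loci were higher in HY and 53 in CN, and 429 of the 500 calls were shared with that fit.

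Pools within a diet were ordered alike over many genes. Of the 454 loci higher in HY, the highest HY pool was F1 in 201 and F2 in 207, while M1 was highest in 17 and M2 in 29. On the CN side, F2, the pool of a single fetus, was the highest CN pool in 261 of the 454 and the lowest in 25 of the 46 loci higher in CN, which places it nearest to HY. The direction of all 454 and all 46 calls was the same in female and in male pools, to which the calls themselves contributed. A test of the difference in diet effect between sexes called 0 loci by edgeR's quasi-likelihood test (0% of those tested, smallest FDR 0.918), with 796 loci at an unadjusted p under 0.05 and 0 calls in every other fit in which this difference was tested. Within female pools alone 0 loci passed FDR ≤0.05 and 1622 passed FDR ≤0.20 (8.73%), and within male pools 0 and 6 (0.0323%).

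Leaving out pools in turn changed the number of calls between 39 and 1275. Without HY pool F1 38 loci were higher in HY and 1 in CN, and without CN pool F2 the counts were 1044 and 231. Of the 454 loci higher in HY, 35 were called in all 8 of these fits, among them ALDH4A1, COL4A2, NF2, RGMA, SQSTM1, CRKL, TMEM8C, DYNC1H1 and the CHI3L1 and MYBPH locus. Of the 46 higher in CN, 1 was called in all 8, a locus without a name. EMC2, MBIP, PLOD2 and the SNORD22 and SNORD31 locus kept their call in 3, the most of any CN locus with a gene symbol. PIN4, TOMM7, CETN3, SAT1 and the RPS25 and SLC37A4 locus kept it in 2. OARD1, ZNF175, PTBP2, GNL2 and RARS2 kept it in 1, and COL3A1 and FRMD3 in 0. The median number of these fits with a call was 2 for loci higher in CN and 3 for loci higher in HY. All 500 loci kept their direction of change in each of these fits.

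**Figure D5:**
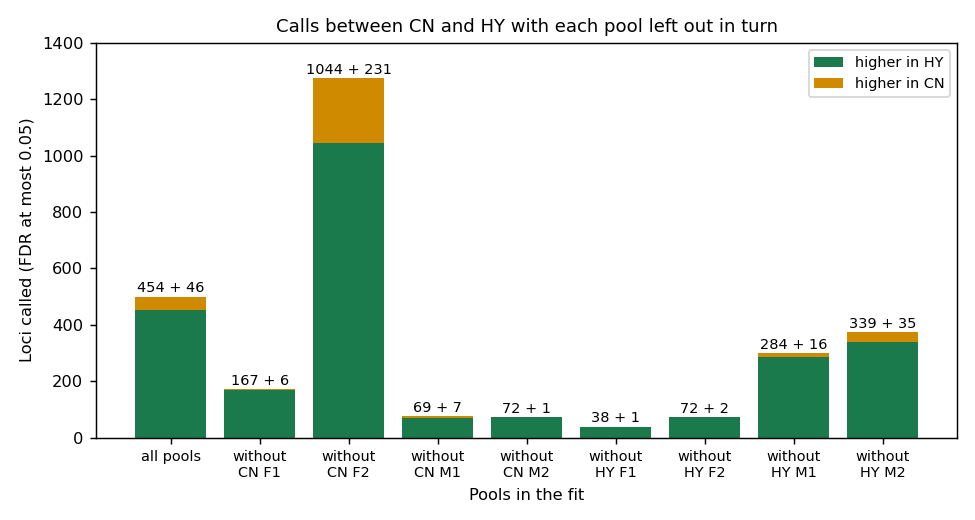
Number of loci called between CN and HY at FDR ≤0.05 with all pools and with each of the 8 pools left out, as bars from 0 split into loci higher in HY (green) and in CN (orange), with both counts above each bar. Calls fall to 39 without HY pool F1 and rise to 1275 without CN pool F2.

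In the muscle pools of the DG diet, PIN4 averaged 18.9 CPM in DG, EMC2 87.8 CPM, ALDH4A1 13.5 CPM, COL4A2 227 CPM and DAG1 227 CPM (n = 4 pools), and these levels were not tested here. In the adipose depots of the same fetuses no locus differed between CN and HY at FDR ≤0.05 (0% of 18246 loci in perirenal and 0% of 18008 in subcutaneous tissue, edgeR's quasi-likelihood test), with 421 and 783 at an unadjusted p under 0.05. Of the named genes higher in HY in muscle, 228 of 351 matched by name (65.0%) also had a log2 change above 0 in perirenal tissue, where 52.4% of all loci did, and 319 of 361 (88.4%) in subcutaneous tissue, where 47.2% did. For those higher in CN, 19 of 28 (67.9%) lay below 0 in perirenal and 27 of 28 (96.4%) in subcutaneous tissue, against 47.6% and 52.8% of all loci. Skeletal muscle fiber markers summed to 3850 to 62582 CPM in the CN and 882 to 121332 CPM in the HY pools of subcutaneous tissue, and the part of muscle RNA in these shares was not tested.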

How the data were processed

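The values the authors deposited are raw read counts per locus, 1 file per pool, without normalization. Per the submitters' processing notes, reads were aligned to Oar_v3.1 with TopHat2 2.0.4, transcripts were assembled with Cufflinks 2.1.1, and HTSeq is also named. Libraries followed an Illumina mRNA-Seq protocol. How reads that map to several places were counted is not given in the sources used here. Coordinates are spans as the files list them, and neighboring loci can share one.

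The 34958 loci of the muscle files were filtered with filterByExpr (minimum count 10, minimum total 15) and scaled by TMM in edgeR 4.0.16 (R 4.3.3). All 12 muscle pools, DG included, entered 1 quasi-likelihood fit with robust estimation, from which HY minus CN was taken, with Benjamini-Hochberg adjustment. Standard errors were taken as the absolute log2 change divided by the square root of F, and values after ± beside CPM are SDs over 4 pools. p-values measure the spread between pools, several of which share a dam. Single measures were compared by two-sided exact permutation tests (scipy 1.17.1). Alternatives were RLE size factors, no filter, the likelihood-ratio test, DESeq2 1.42.0, limma-voom 3.58.1 with quality weights, replicate number as a block, sex as a covariate, the 8 pools only, thinning to the lowest total, each pool left out, and counts summed over loci of the same name. The fits were tested on simulated data.

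Named genes carry a symbol. By rank they are the 12 with the largest change and the 6 with the smallest p in each direction. These ranked genes had FDR ≤0.05, at least 50 mean counts over the 8 pools, and were not named by the study for muscle. Also named are up to 3 called members of each of 48 gene lists (or the nearest member where none was called). For list members study genes were included and no minimum mean count was set, and LFNG had a mean count of 12.1. Further genes were named after their values were seen. The members and lists were chosen with earlier results of these data known. In lists and marker sums each gene stands for its most abundant tested locus, and the 1 list of mitochondrially encoded proteins had no tested member. Gene sequences were not used here, and the values of 1 list and of 3 further genes are not reported here.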

Additional observations from a re-analysis of the deposited data

Results flagged for a closer look

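In 222 sets of 4 pools (107 named loci and 4 library measures in each diet), the pool at one end was set apart by a larger part of the whole range than Dixon's critical value in 17 sets, where chance flags about 1 in 20. In CN this gap was 0.925 of the range for NDUFA10 (pool F2 high at 36.2, 71.3, 35.5 and 38.2 CPM in F1, F2, M1 and M2), 0.916 for COL6A1 (M1 low), 0.900 for CRKL (F1 low), 0.867 for STARD4 (F2 high), 0.866 for CACNG1 (M2 high), 0.862 for AARS (F2 high), 0.855 for KDM6B (M2 low), 0.848 for EPAS1 (F2 high), 0.840 for SRF (F1 low) and 0.833 for ZNF175 (M1 high). In HY it was 0.882 for SEMA4C (M1 low), 0.863 for DUSP16 (F2 high at 5.46, 14.1, 4.41 and 4.08 CPM), 0.861 for MCM5 (F2 low), 0.857 for SRF (F2 high), 0.853 for LFNG (M1 low), 0.844 for TOMM7 (M2 high) and 0.837 for RGMA (F1 high). Both SRF values come from 1 locus. STARD4 was not called between diets (FDR = 0.174).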

How the results depend on the processing

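All 500 calls kept their direction in the 17 other fits by locus, where tested, but their number moved. Against 500 calls (454 higher in HY, 46 in CN), the likelihood-ratio test gave 1157 (944 and 213), DESeq2 gave 1417 (1091 and 326) and limma-voom gave 1308 (1002 and 306). No filter gave 417 (395 and 22). RLE size factors, sex as a covariate, the 8 pools only, thinning to the lowest total and, added after seeing the data, summing loci of the same name gave 367 to 536. Leaving out 1 pool gave 39 (without HY F1) to 1275 (without CN F2) calls, of which 38 to 1044 were higher in HY and 1 (without CN M2 or HY F1) to 231 in CN. Other pools whose removal moved the total by over 1.5 times were CN F1 (173), CN M1 (76), CN M2 (73), HY F2 (74) and HY M1 (300). With the loci summed, RPL13A turned from 2.02 to −0.26. The causes were not tested.

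Between CN and HY, deviations of pools of the same number had correlations of −0.083 to 0.183, and those of pools of other numbers −0.322 to 0.26. So few correlations cannot show whether the numbers pair pools. A fit with the number as a block gave 255 calls (244 and 11). The difference in diet effect between sexes had 0 calls in each fit that tested it, which the block, the sex covariate and the summed loci did not. How small a difference this depth can show was not tested.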
